A study of Mus musculus with 8 samples.

Results

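Bcl11b binding sites that lie at the ends of genes were described in mouse thymocytes, the developing T cells of the thymus. They were the intervals on chromosomes 1 to 19 whose midpoint lay within 1 kb of either end of a protein-coding gene body in RefSeq's annotation of mm10. Each interval is 201 bp long. Of 63098 intervals that entered the tests, 20390 met this rule, which is 33.0% of the 61861 autosomal ones. A RefSeq promoter table gave the strand of 16457 of the 20665 protein-coding genes on these chromosomes. With it, 15178 sites were placed at a start end, where transcription begins, and 1216 at a far end, where the gene body stops. Each site was assigned only to the gene whose end was nearest, also where ends of other genes lay within 1 kb. The nearest gene of the remaining 3996 sites had no strand in that table, and 490 of these lay on chromosome 18, so their ends were not told apart. The other 41471 autosomal intervals, more than 1 kb from either end of any protein-coding gene body, served as the comparison. Ends of other genes and starts inside gene bodies were not considered.

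The study set Bcl11b+/+ thymocytes, called wild type below, against Bcl11b+/N440K thymocytes, which carry 1 allele with the N440K amino acid exchange and 1 wild type allele. Each genotype had 3 chromatin immunoprecipitation (ChIP) libraries, made from freshly isolated, formaldehyde-fixed thymus cells with a rabbit antibody against Bcl11b. The labels give no strain or age, and they do not say whether the libraries of a genotype came from separate animals. The p-values below rest on the variation among these 6 libraries, part or all of which may be technical. The antibody was the same for both genotypes, so signal in Bcl11b+/N440K cells cannot be assigned to the protein of one allele. The question was where Bcl11b binding differs between the genotypes.

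Bcl11b binds DNA through zinc fingers, and T cell precursors need it to commit to the T lineage, and it works with corepressors such as the NuRD histone deacetylase complex. A promoter is the stretch around a transcription start where the general transcription machinery assembles. Many mouse promoters are CpG islands, rich in the dinucleotide CpG, a C followed by a G, and in short sites for widely expressed factors of the SP, KLF, NFY and ETS families. ETS factors, which include the thymocyte regulators Ets1 and GABPA, recognise a GGAA core. RUNX factors, which act beside Bcl11b in T cells, recognise TGTGGT.

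The promoter sequences below show what lies under sites on which the later results turn. Each is the stretch of the site before a transcription start listed in the promoter table, read on the gene's strand from RefSeq's GRCm38.p6 sequence. Capitals mark the motif matches described further on. For Hjurp and Wrap73 the listed start lies inside the gene body, so part of the printed stretch does too. Hjurp (chr1:88277580-88277690, minus strand), Actr3 (chr1:125435728-125435909, minus strand) and Ccnt1 (chr15:98567750-98567950, minus strand) had some of the strongest sites that hold the ETS motif CCGGAAG, and were chosen after their values were seen. Hjurp loads the centromeric histone, Actr3 is a subunit of the Arp2/3 actin nucleator, and Ccnt1 is the cyclin of the transcription elongation factor P-TEFb. Kpnb1 (chr11:97187893-97188058, minus strand), the nuclear import receptor importin beta 1, had one of the 8 strongest sites of all and holds NFY matches but no ETS match here.
Hjurp: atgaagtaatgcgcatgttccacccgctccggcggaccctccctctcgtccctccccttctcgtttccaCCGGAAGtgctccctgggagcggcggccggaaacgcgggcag
Actr3: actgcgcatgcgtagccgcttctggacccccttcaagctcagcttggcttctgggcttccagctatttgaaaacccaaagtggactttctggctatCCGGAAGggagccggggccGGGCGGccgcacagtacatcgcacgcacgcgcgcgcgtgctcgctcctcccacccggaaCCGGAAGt
Ccnt1: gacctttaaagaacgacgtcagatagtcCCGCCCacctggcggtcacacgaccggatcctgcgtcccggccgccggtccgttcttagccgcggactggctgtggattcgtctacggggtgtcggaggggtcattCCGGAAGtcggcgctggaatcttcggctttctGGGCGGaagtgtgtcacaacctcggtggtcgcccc
Kpnb1: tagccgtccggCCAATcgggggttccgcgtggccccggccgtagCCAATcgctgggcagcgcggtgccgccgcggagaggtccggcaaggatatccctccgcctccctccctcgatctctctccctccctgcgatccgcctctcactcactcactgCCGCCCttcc

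A second set belongs to start-end sites whose signal differed between the genotypes. Adam17 (chr12:21373633-21373724, minus strand) encodes the membrane protease that sheds tumour necrosis factor, and Wrap73 (chr4:154142302-154142371, plus strand) encodes a WD-repeat protein. Both had more signal in Bcl11b+/N440K cells. Bmyc (chr2:25706663-25706863, plus strand), a relative of the Myc genes, and Pik3ap1 (chr19:41385103-41385207, minus strand), an adaptor of phosphoinositide 3-kinase, had less. The stretches of Bmyc and Pik3ap1 hold none of the searched motifs, whereas Adam17 holds an ETS match on the other strand and an SP and KLF match.
Adam17: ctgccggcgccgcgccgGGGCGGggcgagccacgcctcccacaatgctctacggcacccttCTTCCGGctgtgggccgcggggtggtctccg
Wrap73: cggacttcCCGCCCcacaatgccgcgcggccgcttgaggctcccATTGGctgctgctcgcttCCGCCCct
Bmyc: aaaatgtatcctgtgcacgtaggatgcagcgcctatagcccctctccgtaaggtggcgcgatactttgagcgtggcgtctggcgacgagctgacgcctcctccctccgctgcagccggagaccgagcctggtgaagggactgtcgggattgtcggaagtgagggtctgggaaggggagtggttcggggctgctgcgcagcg
Pik3ap1: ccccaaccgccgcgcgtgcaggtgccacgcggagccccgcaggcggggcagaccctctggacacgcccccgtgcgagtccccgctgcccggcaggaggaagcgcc

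The sites crowded around transcription starts and hardly at all around far ends. Of the 16457 genes with a strand, 7875 (47.9%) had a start-end site, 943 (5.73%) had a far-end site and 608 had both. These counts leave out genes whose only sites lay nearer to an end of another gene. In all, 10183 genes had at least 1 site, of which 4001 had 1, 3369 had 2 and 2813 had 3 or more. The densest 100-bp stretch was the first 100 bp of the gene with 2187 sites (14.4% of start-end sites), followed by the next 100 bp with 1721 and the last 100 bp before the start with 1704. The outermost bins held 92 sites on the upstream side and 441 on the gene side. The median start-end site lay 114 bp inside the gene, 33.5% lay upstream, and 49.6% lay within 250 bp of the start. Far-end sites showed no such crowding, with 42 to 88 sites in every 100-bp bin, 51.9% beyond the gene and 29.7% within 250 bp. For 212 far-end sites (17.4%) a start listed in the promoter table, of the same or another gene, also lay within 1 kb.

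**Figure D1:**
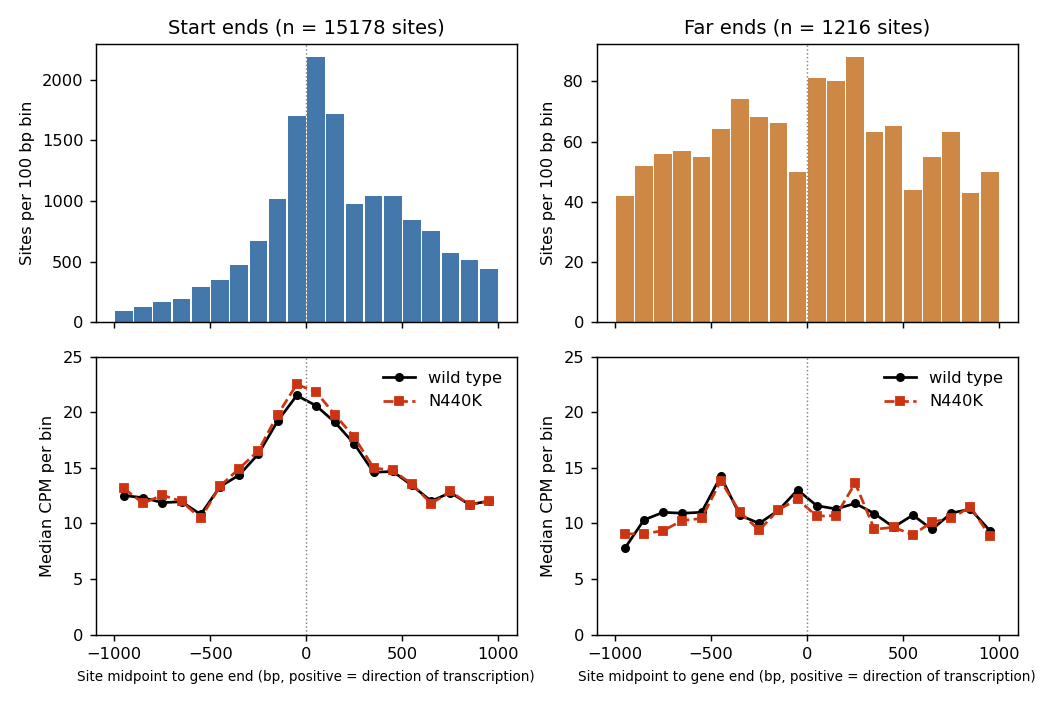
Number of Bcl11b sites (top) and their median wild type signal in CPM (bottom) by distance in bp of the site's midpoint from the transcription start (left) or the far end (right), in 100-bp bins with positive distances downstream. Site number peaks at 2187 in the first 100 bp of genes and signal at 21.5 CPM in the last 100 bp before the start, while far-end bins hold 42 to 88 sites.

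Some genes carried many sites. Klf16, a KLF transcription factor, had the most with 8 (strand not known), and Abtb2, Acaa2 and Cd3e had 7 each. Cd3e encodes the epsilon chain of the CD3 complex of the T cell receptor. Of its sites, 4 lay at the start and 3 at the far end, with wild type means from 9.28 to 21.6 CPM. None of the sites of these 4 genes passed the genotype test, which called 0.510% of all gene-end sites. Sites can lie side by side. The closest midpoints of gene-end sites were 201 bp apart, the length of an interval, and 5377 neighbouring pairs were closer than 400 bp. The number of sites is therefore not a number of separate binding events. Genes with a start-end site had a median body length of 22457 bp, genes with a far-end site 14068 bp, and all genes with a strand 17273 bp. At 1770 start-end sites (11.7%) the starts of at least 2 genes lay within 1 kb, and the median wild type signal there was 18.5 CPM against 16.2 CPM at sites with 1 start.

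Signal is given as CPM, the reads in a site divided by the library's reads over all tested intervals, scaled between libraries (trimmed mean of M values, TMM). Start-end sites carried more of it than far-end sites in each of the 6 libraries. Their median was 16.7, 17.3 and 15.9 CPM in wild type replicates 1 to 3, and 16.6, 17.7 and 16.1 CPM in Bcl11b+/N440K replicates 1 to 3. The far-end median was 11.2, 10.7 and 10.7 CPM in wild type and 10.5, 10.4 and 10.9 CPM in Bcl11b+/N440K. Intervals away from gene ends had 10.5, 10.3 and 10.7 CPM, then 10.5, 9.76 and 10.4 CPM, so far ends lay close to that level and start ends above it. Sites without a strand lay between, at 14.6 to 15.9 CPM.

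On the log2 scale the median start-end site exceeded the median far-end site by 0.63 ± 0.08 (SD, n = 6 libraries), or 1.54-fold, and the difference was positive in 6 of 6 libraries (two-sided exact sign-flip permutation test over libraries, p = 0.0312, which is the lowest p obtainable with 6 libraries). All gene-end sites together exceeded the other intervals by 0.60 ± 0.11 (SD, n = 6), or 1.52-fold (same exact test, p = 0.0312). Without the filter on low counts the differences were 1.01 and 1.06. Neither difference separated the genotypes, with exact permutation p = 0.7 and p = 0.5 in a comparison of 3 against 3 libraries, which cannot go below 0.1. Of start-end sites 39.5% were in the top quartile of all tested intervals by mean signal over the 6 libraries, against 19.4% of far-end sites and 19.4% of intervals elsewhere. The highest interval of all was not at a gene end: the maximum was 115 CPM at start ends and 242 CPM elsewhere.

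**Figure D2:**
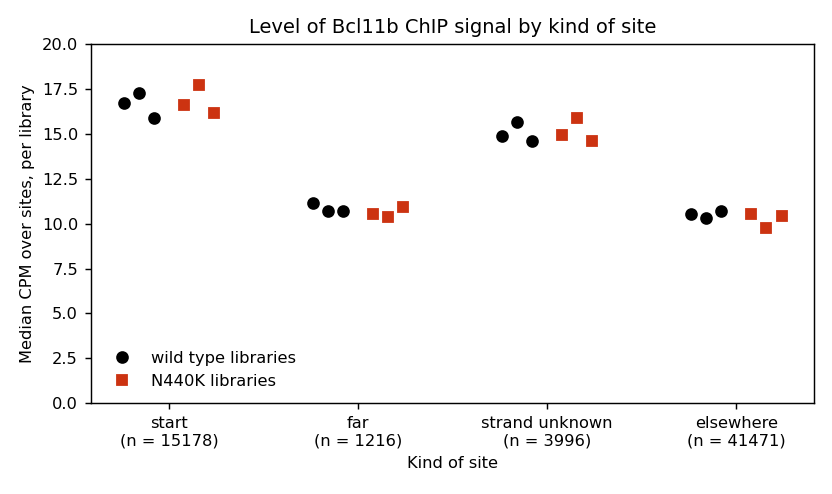
Median signal in CPM of start-end, far-end and strand-unknown sites and of intervals elsewhere, 1 point for each of the 3 wild type and 3 Bcl11b+/N440K libraries. Start-end medians run from 15.9 to 17.7 CPM and stand above the far-end medians of 10.4 to 11.2 CPM in every library, and the genotypes overlap in each class.

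Of the reads a library had in tested intervals, the share at gene ends did not separate the genotypes. It was 38.2%, 39.6% and 36.5% in wild type and 38.6%, 40.8% and 37.7% in Bcl11b+/N440K. The means were 38.1% ± 1.57 and 39.0% ± 1.60 (SD, n = 3 each; exact permutation p = 0.5), and the libraries overlapped. Start ends took 29.21% ± 1.34 and 29.98% ± 1.32 (exact permutation p = 0.5), and far ends 1.75% ± 0.019 and 1.73% ± 0.032 (exact permutation p = 0.5).

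The strongest gene-end sites had high signal in both genotypes. The highest wild type mean belonged to a site 707 bp inside Medag (chr5:149368248-149368448), with 126, 108 and 112 CPM in wild type and 119, 111 and 116 CPM in Bcl11b+/N440K. The genotypes overlapped. Next came Clasp1, a microtubule plus-end protein, with 113 and 120 CPM, and Msh6, a DNA mismatch repair protein, with 95.3 and 96.0 CPM (means of wild type and Bcl11b+/N440K). Clptm1 had 90.3 and 96.6 CPM. The strongest far-end site, 249 bp inside the end of Scube1, had 92.6 and 107 CPM. None of these 5 passed the test described below. The Kpnb1 site shown above had 107, 86.5 and 83.3 CPM in wild type and 118, 128 and 107 CPM in Bcl11b+/N440K. With adjusted p = 0.0845 (edgeR) it did not pass either, but it was called in 3 of 15 alternatives, limma voom among them (adjusted p = 0.0487).

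The rule's distance limit cut through a sparse stretch. The 783 sites from 0.9 to 1 kb had a median wild type signal of 11.4 CPM, and the 697 intervals from 1 to 1.1 kb, just outside, had 12.1 CPM.

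Promoter sequence varied with the presence and strength of a site. The promoter table holds 20085 windows of 300 bp, from 250 bp before to 50 bp after a start, for the 16457 genes, and 5706 of them were overlapped by a start-end site over at least 100 bp. These held a median of 24 CpG pairs, against 14 in all windows and 4 in the 10204 windows that no deposited interval touched. The ETS motif CCGGAAG, searched on both strands like every motif here, was in 26.0% of overlapped windows, 11.9% of all windows and 2.75% of untouched ones. The SP and KLF motif GGGCGG was in 70.3%, 47.0% and 25.5%. The NFY motif CCAAT was about equally frequent, in 39.5%, 38.1% and 38.1%. TGACGTCA, the cyclic AMP response element, was in 3.72% of overlapped and 0.99% of untouched windows. The longer motifs of NRF1 and YY1 were in 2.82% and 2.66% of overlapped windows and in 1.34% and 1.18% of all.

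The remaining motifs were less frequent under the sites. TGTGGT, the RUNX motif, was in 11.7% of overlapped, 14.8% of all and 17.8% of untouched windows. TATAAA, the core promoter box that TBP binds, was in 5.29%, 12.7% and 19.7%. AGATAA, the motif of Gata3 and its relatives, was in 4.56%, 9.57% and 13.8%. CAGCTG, an E box, was in 13.9%, 15.6% and 17.0%. TGACCA, the motif known for the related factor Bcl11a, was in 10.7%, 12.6% and 14.6%. Of the short motifs only that of SP and KLF is made wholly of G and C, and the windows differ in CpG content, so these shares describe the windows and do not locate a bound factor.

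Within the overlapped windows, the ETS motif became more frequent from weak to strong sites. Its share was 12.3%, 22.7%, 32.0% and 37.1% from the lowest to the highest quartile of wild type signal, with borders at 14.5, 21.4 and 30.3 CPM. Windows with the motif had a median of 25.7 CPM (1484 windows) and those without it 19.7 CPM (4222). The rise was also present among windows of like CpG content: with 25 to 29 CpG pairs the shares were 10.6%, 21.3%, 34.96% and 45.8%, and with 20 to 24 pairs 17.3%, 28.3%, 36.2% and 43.7%. With 15 to 19 pairs the top quartile, at 31.0%, lay below the third, at 39.5%. The SP and KLF motif did not show such a rise, being in 68.7%, 72.9%, 70.3% and 69.4% of windows. Signal itself rose with CpG content, from a median of 12.2 CPM in windows with 0 to 4 pairs to 23.8 CPM with 30 to 59. Among the strong ETS-bearing promoters printed above, the Hjurp site had 89.8, 90.2 and 83.7 CPM in wild type, and the Actr3 site had 79.3, 81.1 and 73.8 CPM.

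**Figure D3:**
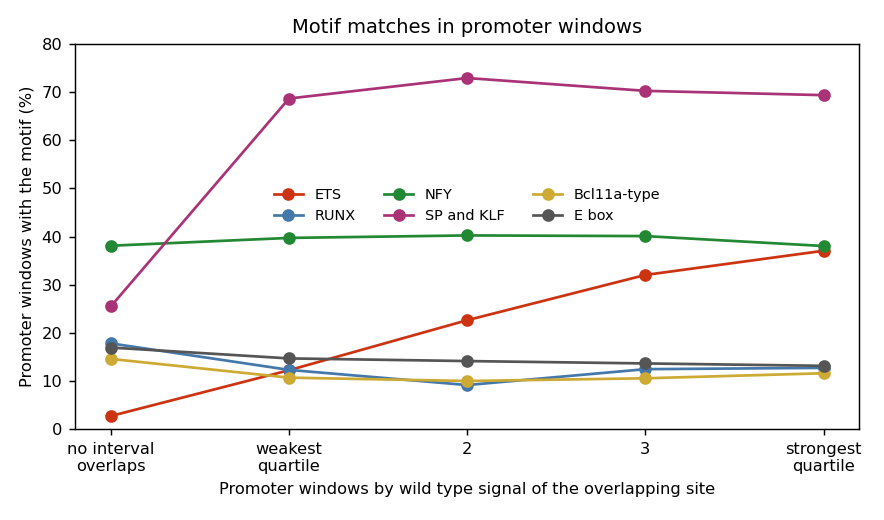
Percent of 300-bp promoter windows that hold each motif on either strand, for windows no interval touches and for overlapped windows in quartiles of wild type signal, for 6 of the motifs. The ETS share climbs from 2.75% in untouched windows to 37.1% in the strongest quartile, while the RUNX and E box shares are higher in untouched windows than in any quartile.

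Genes that define T cells were almost all occupied at their ends, where 10183 of all 20665 protein-coding genes on chromosomes 1 to 19 had a site. Lists of general genes were occupied to a like degree, with 66 of 74 ribosomal protein genes and 14 of 16 housekeeping genes. All 11 thymocyte markers (Cd3d, Cd3e, Cd3g, Cd4, Cd8a, Cd8b1, Lck, Ptcra, Rag1, Tcf7, Thy1) had a site, 31 in all, whose summed signal was 862 to 905 CPM in wild type and 867 to 902 CPM in Bcl11b+/N440K. Of other cell types, 2 of 6 B cell markers (Cd79b, Ebf1), 2 of 5 myeloid markers (Cebpa, Spi1), 1 of 2 autosomal erythroid markers (Klf1) and 1 of 5 thymic epithelial markers (Epcam) had one. Pax5, Csf1r, Lyz2, Foxn1 and Krt5 had none assigned to them. Binding is no measure of RNA, so this checks where the protein was found and not which cells were present. The summed signal of the B cell markers was 51.1 to 63.8 CPM in wild type and 41.5 to 50.4 CPM in Bcl11b+/N440K, and that of the myeloid markers was 45.2 to 49.0 and 43.2 to 50.4 CPM.

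Of 31 genes of T-lineage identity, 29 had a site. The median of their start-end sites was 27.4 CPM in wild type, where the median of all start-end sites was 16.5 CPM. That median was 22.6 CPM for genes of NuRD and Polycomb subunits, 22.1 CPM for housekeeping genes and 17.2 CPM for ribosomal protein genes. The strongest T-lineage genes were Tcf3, an E protein, at 69.4 CPM and Satb1, a chromatin organiser of thymocytes, at 67.6 CPM. They were followed among well-known members by Cd5, an inhibitory receptor, at 51.7 CPM. Rag1, the recombinase of T cell receptor gene assembly, had 47.5 CPM at its start. Of 28 genes of T cell receptor signalling 26 had a site, with a start-end median of 26.2 CPM. Lat, the scaffold of that pathway, had 63.6 CPM, Grap2, an adaptor, 53.7 CPM and the kinase Zap70 48.5 CPM. Across the 82 sites of the first list and the 62 of the second the median log2 change between genotypes was 0.005 and 0.001, and 1 of them, at Zbtb7b, passed the test. The test called 0.510% of all gene-end sites and 1.14% of all tested intervals.

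The Bcl11b gene itself had 3 start-end sites. The one 42 bp inside the gene (chr12:108004003-108004203) had 53.9, 51.0 and 47.2 CPM in wild type and 27.1, 37.8 and 44.8 CPM in Bcl11b+/N440K. All Bcl11b+/N440K libraries lay below all wild type libraries, with a log2 change of -0.46 that did not pass the test (adjusted p = 0.137, edgeR). The sites at 438 bp and 962 bp went from means of 39.0 to 28.4 CPM (adjusted p = 0.234) and from 29.05 to 22.3 CPM (adjusted p = 0.401, both edgeR). Summed over the 3 sites, Bcl11b had 124, 106 and 126 CPM in wild type and 75.9, 96.4 and 89.5 CPM in Bcl11b+/N440K. The sums did not overlap, and this 1.36-fold fall was called (adjusted p = 0.0148, edgeR). limma voom also called it (adjusted p = 0.0196), DESeq2 did not (adjusted p = 0.25), and the edgeR call was lost without Bcl11b+/N440K replicate 1 (adjusted p = 0.213) or without wild type replicate 1 or 3 (adjusted p = 0.0833 and 0.107).

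Genes of early progenitors, which precursors switch off when they commit to the T lineage, carried weaker sites. Of 18 such genes 12 had a site, with a start-end median of 10.6 CPM. Their 23 sites had a median log2 change of -0.32 in Bcl11b+/N440K, 15 negative and 8 positive, where the median of all tested intervals was 0.004. Gene-end sites in the 2 lowest quartiles had medians of -0.11 and -0.05 by mean signal over the 6 libraries, and 0.07 and -0.04 by wild type signal. The neuron and erythroid lists had -0.37 and -0.35. The lists were chosen with earlier results of these data known. Of the 23 sites none passed the adjusted edgeR test, which called 0.510% of all gene-end sites. An unadjusted edgeR p under 0.05 was seen at 8 (34.8%), against 1958 (9.60%) of all gene-end sites. The 3 sites named next are among the 15 that fell. Mycn, a Myc-family gene, had 38.4, 34.2 and 30.05 CPM in wild type and 22.1, 18.3 and 24.98 CPM in Bcl11b+/N440K (adjusted p = 0.0804, edgeR). Erg, an ETS factor of stem cells, went from a mean of 12.9 to 6.48 CPM (adjusted p = 0.0912) and Bcl11a, the relative of Bcl11b, from 17.7 to 10.9 CPM (adjusted p = 0.163, both edgeR). At each of these 3 sites the genotypes did not overlap, as at 9 of the 23 (39.1%) and at 15.1% of all gene-end sites (17.3% of all tested intervals). Kit, the stem cell factor receptor, had 4 start-end sites of 5.85 to 14.3 CPM in wild type, with adjusted p from 0.185 to 0.981.

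The other lists held no site that passed the test, which called 0.510% of all gene-end sites and 1.14% of all tested intervals. At such shares, lists of this size would hold few calls or none. In general cell machinery, 66 of 74 ribosomal protein genes had a site (110 sites, median log2 change 0.10), as had 14 of 16 housekeeping genes (31 sites, 0.01), all 17 replication-dependent histone genes (41 sites, -0.10) and 22 of 24 genes of NuRD and Polycomb subunits (67 sites, 0.06). The histone genes, which are short, had 19 start-end and 19 far-end sites. In regulation of thymocytes, 13 of 14 Notch pathway genes (32 sites, 0.10), 18 of 22 survival and cell cycle genes (53 sites, 0.03) and 8 of 9 regulatory T cell genes (12 sites, -0.02) had one. In other lineages the counts were 7 of 16 for natural killer and innate lymphoid cells (16 sites, -0.07), 3 of 11 for B cells (8 sites, -0.14), 2 of 12 for myeloid cells (7 sites, -0.09), 2 of 6 for erythroid cells (4 sites, -0.35), 4 of 8 for thymic epithelium (4 sites, 0.05) and 3 of 15 for neurons (8 sites, -0.37). The lists share genes, Bcl11a being in both the progenitor and the neuron list.

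Between the genotypes, 104 gene-end sites differed (edgeR's quasi-likelihood test at an adjusted p under 0.05, by Benjamini-Hochberg over all tested intervals). They are 0.510% of the sites, where 1.14% of all tested intervals were called. Of them 54 were lower in Bcl11b+/N440K, with a median 2.57-fold fall, and 50 higher, with a median 1.61-fold rise. Over all tested intervals 0.681% were called lower and 0.46% higher. By kind, 71 start-end sites (0.468%) were called, 33 lower and 38 higher. At far ends 11 sites (0.905%) were called, 7 lower and 4 higher, and among sites without a strand 22 (14 lower, 8 higher). Away from gene ends 608 intervals (1.47%) were called. Whether these shares differ was not tested. At an unadjusted p under 0.05 there were 1958 gene-end sites.

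The number called depended on the method. DESeq2 called 5 gene-end sites, 4 lower and 1 higher, where it called 0.0951% of all intervals (0.0618% lower, 0.0333% higher). limma voom called 46, 14 lower and 32 higher, where it called 0.504% (0.231% lower, 0.273% higher). At far ends DESeq2 called 0 sites and limma voom 6, with 69 at an unadjusted DESeq2 p under 0.05. At 103 of the 104 sites every library of one genotype lay above every library of the other. Such separation was seen at 15.1% of all gene-end sites, against 17.3% of all tested intervals.

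How direction went with strength depended on how strength was measured. By mean signal over all 6 libraries, gene-end sites below the median of all tested intervals (11.8 CPM) had 34 lower and 3 higher calls. The third quartile (up to 20.02 CPM) had 14 lower and 8 higher, and the top quartile 6 lower and 39 higher. The median log2 change went from -0.11 in the lowest quartile through -0.05 and 0.02 to 0.08 in the highest. This mean includes the Bcl11b+/N440K libraries, so a site that fell also has a lower mean. By wild type signal alone, a split chosen after seeing the data, sites below the median had 17 lower and 10 higher calls, the third quartile 25 and 4, and the top quartile 12 and 36. The median log2 changes were then 0.07, -0.04, 0.01 and 0.06 from the lowest to the highest quartile, without a steady rise. In the main fit, more higher than lower calls in the top quartile was thus seen with both measures. By the mean of 6 libraries, loess offsets, a scaling that removes trends with signal strength, gave 71 calls, 24 lower and 7 higher below the median and 7 lower and 13 higher in the top quartile. limma voom gave 3 lower and 1 higher below the median and 4 lower and 25 higher in the top quartile. Without Bcl11b+/N440K replicate 2 there were 30 lower and 2 higher below the median. The top quartile then had 9 lower and 12 higher (7 and 8 at start ends), so its excess of higher calls depended largely on that library. Higher calls were 48.1% of the total in the main scaling, 39.4% with loess offsets, 39.8% with total counts, 69.6% with limma voom and 27.1% without Bcl11b+/N440K replicate 2, which left 70 calls. For start ends these shares were 53.5%, 43.5%, 42.4%, 75% and 25%.

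**Figure D4:**
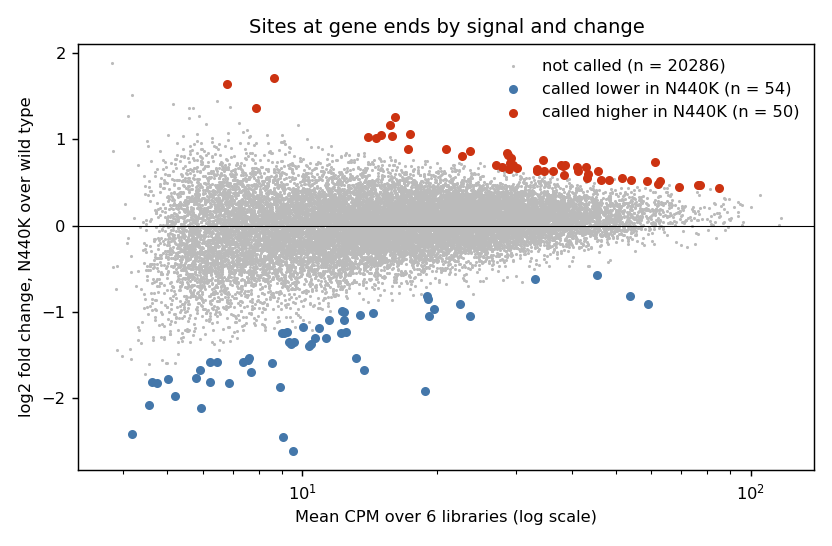
Log2 change of each gene-end site between genotypes (vertical, Bcl11b+/N440K over wild type) against its mean signal in CPM over the 6 libraries of both genotypes (horizontal, log axis), with the 104 called sites in colour. On this axis 34 of the 54 sites called lower lie below 11.8 CPM and 39 of the 50 called higher lie above 20.02 CPM.

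The site with the smallest p lay near an end of Fbn2, which encodes the extracellular matrix protein fibrillin 2 (chr18:58009327-58009527, 804 bp inside the gene body, strand not known). It had 32.2, 25.9 and 31.3 CPM in wild type and 7.20, 7.93 and 8.33 CPM in Bcl11b+/N440K. The genotypes were far apart, with a 3.76-fold fall (log2 -1.91, SE 0.24, adjusted p = 4.3e-07, edgeR). At a site 116 bp upstream of Bmyc (chr2:25706663-25706863), wild type libraries had 27.9, 16.5 and 18.5 CPM and Bcl11b+/N440K libraries 6.64, 9.15 and 3.64 CPM. This was a 3.18-fold fall without overlap (adjusted p = 0.000353, edgeR). A site near Rdm1, which encodes an RNA-binding-motif protein related to a DNA recombination factor (chr11:101627601-101627801, strand not known), fell from 82.4, 67.1 and 82.0 CPM to 37.7, 43.9 and 41.6 CPM (1.87-fold, adjusted p = 2.84e-05, edgeR). It was 1 of the 6 sites called lower in the top quartile by mean signal over the 6 libraries.

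The promoter of Alyref2, a messenger RNA export factor, had a called site beside others that were not called. At its site 471 bp upstream (chr1:171502907-171503107) wild type libraries had 71.3, 63.0 and 72.5 CPM and Bcl11b+/N440K libraries 41.5, 35.4 and 39.6 CPM, a 1.76-fold fall (adjusted p = 0.000215, edgeR). The site 165 bp upstream had means of 72.0 and 80.4 CPM (adjusted p = 0.581), that 791 bp upstream 56.2 and 53.1 CPM (adjusted p = 0.874), and that 273 bp inside the gene 54.1 and 49.9 CPM (adjusted p = 0.815). Of 4 neighbouring sites 1 was therefore called, and whether their changes differ was not tested.

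Among lower sites of medium strength, Erich3 (481 bp inside the gene) had a 2.89-fold fall from 19.5 to 6.91 CPM. Pik3ap1, whose site lies 5 bp before the start, fell 2.36-fold from 16.7, 18.1 and 16.7 CPM to 6.09, 6.10 and 9.37 CPM (adjusted p = 0.00963, edgeR). Pip5k1b, a phosphoinositide kinase, fell 2.35-fold and Soga1 2.14-fold. The Soga1 call was kept in 9 of 15 alternatives and lost with DESeq2 (adjusted p = 0.474) and limma voom (adjusted p = 0.0616), and DESeq2 called neither Erich3, Pik3ap1 nor Pip5k1b. At far ends, a site 96 bp beyond Park7, the Parkinson disease gene DJ-1, fell 2.07-fold from a mean of 31.9 to 15.4 CPM, and one 694 bp inside the end of Gm52310 fell 2.06-fold. DESeq2 called neither far-end site (adjusted p = 0.0928 and 0.237). Rab6b, a small GTPase of Golgi traffic, had the largest fitted fall among the sites named here, from 19.8, 5.76 and 24.04 CPM to 0.554, 3.05 and 4.16 CPM (log2 -2.61, adjusted p = 0.000168, edgeR). Its wild type libraries were uneven, and neither DESeq2 (adjusted p = 0.431) nor limma voom (adjusted p = 0.13) called it.

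Among higher sites, the one with the smallest p covered the start of Adam17 (chr12:21373524-21373724), where wild type libraries had 52.0, 49.0 and 37.3 CPM and Bcl11b+/N440K libraries 80.3, 69.6 and 78.1 CPM. The genotypes did not overlap, with a 1.66-fold rise (log2 0.74, SE 0.13, adjusted p = 0.000639, edgeR). Slc39a2, a zinc transporter, rose 2.39-fold at a site 607 bp upstream, from 11.2, 7.41 and 10.3 CPM to 21.6, 20.7 and 25.5 CPM (adjusted p = 0.00189, edgeR). Actr1a, the dynactin subunit Arp1, rose 2.09-fold 241 bp inside the gene, from a mean of 11.3 to 23.5 CPM. Pm20d1 rose 2.24-fold, the splicing factor gene U2af2 2.06-fold, Wrap73 2.04-fold, Kcnj8, a potassium channel, 2.02-fold and Tmem64 1.85-fold. DESeq2 called none of these 5, nor Slc39a2 (adjusted p = 0.11) or Actr1a (adjusted p = 0.253). The only gene-end site that DESeq2 called higher was that of Adam17 (adjusted p = 0.0368). limma voom did not call Wrap73 (adjusted p = 0.0729) or Tmem64 (adjusted p = 0.0666). The Wrap73 call was kept in 9 and the Tmem64 call in 7 of 15 alternatives. Lypd9, with a site 124 bp beyond its far end, rose 3.28-fold from a weak 3.86 to 13.5 CPM, and DESeq2 did not call it (adjusted p = 0.14). Ccnt1, printed above for its ETS match, rose from a mean of 71.8 to 97.6 CPM (adjusted p = 0.0332, edgeR).

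Zbtb7b was the one gene of all 16 lists with a called site, where 0.510% of all gene-end sites were called. It encodes ThPOK, the factor that directs thymocytes to the CD4 fate. Its site 220 bp upstream (chr3:89393793-89393993) had 8.67, 9.88 and 10.3 CPM in wild type and 17.7, 25.6 and 17.7 CPM in Bcl11b+/N440K. All Bcl11b+/N440K libraries were above all wild type libraries, a 2.07-fold rise (adjusted p = 0.0165, edgeR). The call was kept in 11 of 15 alternatives and lost with DESeq2 (adjusted p = 0.35). A neighbouring site 482 bp upstream had 11.6 and 12.3 CPM (adjusted p = 0.967, edgeR).

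**Figure D5:**
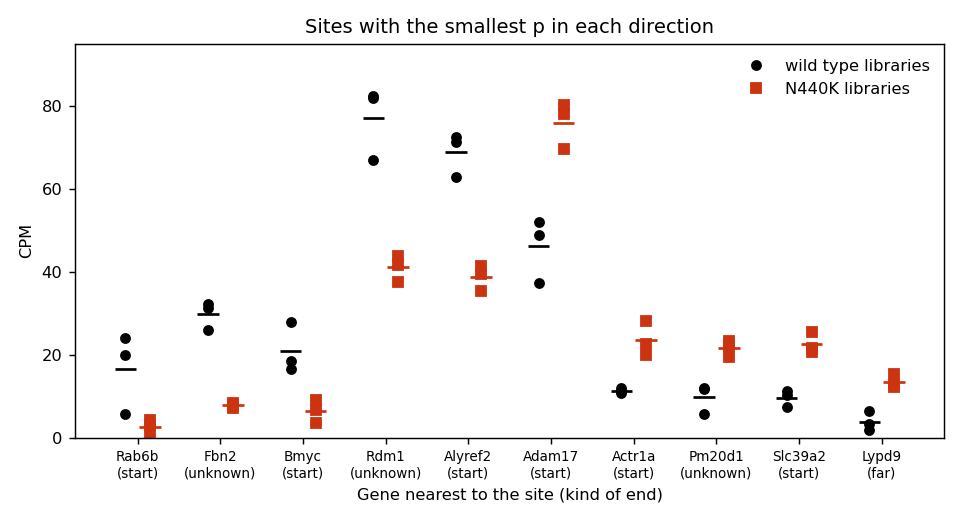
Signal in CPM of the called sites with the smallest p in each direction, 1 point for each wild type and each Bcl11b+/N440K library. The genotypes do not overlap at any of them, and the wild type libraries of Rab6b spread from 5.76 to 24.04 CPM.

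The promoter windows under called sites were few. Sites called lower overlapped 15 windows, of which 1 (6.67%) held the ETS motif, and sites called higher overlapped 18, of which 8 (44.4%) held it. Of all overlapped windows 26.0% held it. Their median CpG counts were 33 and 29. The windows of sites called higher had a median wild type signal of 35.4 CPM and those of sites called lower 15.3 CPM. In the quartiles of wild type signal that hold these medians, the ETS share was 37.1% and 22.7%. Whether the ETS share differs between windows of sites called higher and lower was not tested.

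When the counts of all gene-end sites of a gene were summed, 144 of 10183 genes (1.41%) were called, 95 lower (0.933%) and 49 higher (0.481%). Of these, 70 had no site that was called alone, and 115 had at least 2 sites. DESeq2 called 24 genes (0.236%) and limma voom 138 (1.36%). Fbn2 and Rab6b, named above, were called lower, but the Rab6b sum ran 71.9, 14.4 and 61.8 CPM in wild type and 11.1, 22.0 and 7.29 CPM in Bcl11b+/N440K, which overlap, and DESeq2 gave it adjusted p = 0.709. Peli2, a ubiquitin ligase of innate signalling, fell from 26.6, 27.99 and 32.6 CPM over 3 sites to 11.6, 12.2 and 8.85 CPM, without overlap. The transcription factor gene Klf5 fell from a mean of 31.5 to 11.8 CPM and Adgrl2, an adhesion receptor, from 24.04 to 8.16 CPM, each over 3 sites.

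Higher sums with the smallest p were those of Actr1a (31.8 to 56.8 CPM over 3 sites), Adam17 and Slc39a2 (1 site each, with the values above), Tor2a, a torsin ATPase (54.7 to 88.4 CPM over 2 sites), and Olfr9, an olfactory receptor gene (59.3 to 91.8 CPM over 3 sites). Among genes with no site called alone, Igf1r, the receptor of insulin-like growth factor 1, fell from 89.8, 87.3 and 97.0 CPM to 56.5, 62.8 and 58.8 CPM over 4 sites (1.54-fold, adjusted p = 0.000527, edgeR). Sox12, a SOX factor, fell from 52.7, 50.6 and 54.5 CPM to 27.7, 32.9 and 30.7 CPM over 5 sites (1.73-fold). Igf1r and Sox12 were chosen after their values were seen. In both, the genotypes did not overlap, and DESeq2 also called both sums (adjusted p = 0.0261 and 0.0378).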

How the data were processed

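ChIP-seq libraries of 3 Bcl11b+/+ and 3 Bcl11b+/N440K samples were compared; the 2 inputs were not used. Per the submitters' processing notes the tools included Bowtie2 2.3.5 with mm10, MACS2, edgeR 3.38.2, fastp 0.20.0, bedtools and SAMtools 1.9, with no role or order given. The authors deposited read counts for 93708 intervals and CPM (reads scaled to library size, with decimals) for 63098 of them, all 201 bp long. The filter on low counts kept the same 63098 intervals. CPM values correspond to whole reads in 100% of cases (tolerance 0.01), and the count test on the recovered reads called 104 gene-end sites. Total counts per library over tested intervals ran from 1609762 to 2400250.

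Counts were tested with edgeR 4.0.16 in R 4.3.3 (quasi-likelihood, TMM, Benjamini-Hochberg over all intervals, threshold 0.05), with DESeq2 1.42.0 and limma 3.58.1 (voom) as alternatives, and checked on simulated data. Library medians and shares were compared with exact permutation tests, on log2 CPM with a prior count of 0.5. Gene ends and strands came from RefSeq tables. Windows and motifs were read from GRCm38.p6. Sites named are the 8 largest called changes each way above the median CPM, the 5 smallest p each way for sites and for sums, the 8 strongest sites, the 4 genes with most sites, and in each list the 2 genes with the strongest start-end sites (not all printed) and every called site; 2 of the 8 strongest sites are not reported here; others are said to be chosen after their values were seen or are neighbours, markers or list members given for comparison. The members and lists were chosen with earlier results of these data known. The labels do not tie equal replicate numbers together, so same-numbered libraries were not treated as pairs in the main fit. In their deviations from the group means, same-numbered libraries correlated at 0.014 to 0.050, above all differently numbered ones, at -0.034 to 0.0071. Whether equal numbers mark a shared batch was not tested, and counts with a replicate block are given below. Other settings tried were other scalings, filters, distances, thresholds and leaving out each library.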

Additional observations from a re-analysis of the deposited data

How the results depend on the processing

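The counts of called sites depended on the method more than on the scaling. At gene ends the 104 calls became 5 with DESeq2, 46 with limma voom, 49 when intervals below the median CPM were left out and 22 at a threshold of 0.01. They ran from 45 to 70 when 1 library was left out (45 without Bcl11b+/N440K replicate 1, 46, 68 and 58 without wild type replicates 1, 2 and 3, and 50 without Bcl11b+/N440K replicate 3). At start ends the 71 calls became 3, 32, 32 and 12 in the same order, 46 with loess offsets, and 30 to 48 without 1 library. At far ends the 11 calls became 0, 6, 6 and 3, with 7 at a 0.5 kb limit, 23 at 2 kb and 3 to 10 without 1 library (fewest without Bcl11b+/N440K replicate 1). Sums per gene went from 144 to 24 with DESeq2, 40 above the median CPM, 66 at the threshold of 0.01, 73 at 0.5 kb and 57 to 161 without 1 library (57 and 77 without Bcl11b+/N440K replicates 1 and 3, 69 and 93 without wild type replicates 2 and 3). A replicate block gave 128 calls at gene ends, 89 at start ends, 13 at far ends and 234 sums (119 lower, 115 higher). The share of reads at gene ends, 0.86 percentage points higher in Bcl11b+/N440K, ran from -0.025 (without Bcl11b+/N440K replicate 2) to 1.62 without 1 library, that at start ends from 0.036 to 1.40 and that at far ends from -0.029 to 0.00198; none had passed the test. With 5 libraries the sign-flip test cannot reach the threshold, so the level differences, 0.60 to 0.64 for start against far ends and 0.56 to 0.62 for gene ends against the rest, then miss it by construction; without the filter on low counts they were 1.01 and 1.06. Of the 21 named called sites, 5 were kept by DESeq2, 17 by limma voom and 15 to 19 without 1 library, none with the opposite sign. Added after seeing the data, leaving out chromosome 12, which holds Bcl11b, left 100 calls. Depth limits weak sites: at a few CPM a site holds few reads in each library.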
